A study of Mus musculus with 4 samples.

Results

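Red cell production in the fetal liver is run by a small set of nuclear regulators and 1 receptor, and 10 genes of that set were followed here across livers of mid-gestation fetuses from dams fed 2 diets. The genes were Gata1, Klf1, Tal1, Nfe2, Zfpm1, Lmo2, Gfi1b, Bcl11a and Myb, which encode nuclear proteins, and Epor, which encodes the erythropoietin receptor. They were taken by name, and every probe whose transcript belongs to 1 of them was used, which gave 18 probes for 10 genes out of 56596 probes for 22909 genes on the array. The female C57BL/6J dams received during gestation either a control diet (CD) with 4.3% of its energy as fat or a high-fat diet (HFD) with 60%. Total RNA of whole fetal liver was labeled with Cy3 and hybridised to Agilent arrays of 1 colour, with 2 arrays per diet. The labels call them 2 biological replicates per diet. They give the gender as female without saying whether fetus or dam is meant, and say neither how many fetuses nor how many dams stand behind an array, so p-values measure only the spread between these arrays. The question was whether the level of these regulators differed with the diet of the dam.

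The fetal liver is the main site of definitive red cell formation before birth, and most of its cells at mid-gestation are maturing erythroid cells. GATA1 binds the letters GATA in the DNA of erythroid genes. It works with its cofactor FOG1, the product of Zfpm1, and with a complex in which TAL1 binds E-boxes and LMO2 is the bridge. KLF1 binds CACC boxes of the globin, heme and membrane genes, and EPOR passes the signal of erythropoietin to JAK2 and STAT5 to keep erythroid precursors alive.

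No difference between diets was detected in any of the 10 genes. Of the 18 probes, 0 passed an adjusted p of 0.05 (limma with Benjamini-Hochberg adjustment), against 0% of the 41332 probes tested on the whole array, and 0 passed an unadjusted p of 0.05, against 3.34% of all probes. The differences between the diet means ran from -0.18 to 0.62 on the log2 scale, and for 16 of the 18 probes the 95% confidence interval lay within 2-fold in either direction. What differed was the pair of CD arrays: CD replicate 1 was the lowest of the 4 arrays on 17 of the 18 probes and CD replicate 2 was the highest on 14. The pair of HFD arrays lay close together.

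Promoter sequences are shown for 4 of the genes to set beside the levels: Gata1 as the central factor, Klf1 and Epor because the CD arrays differed most in their brightest probes, and Gfi1b because the CD arrays differed least in its probe. Each is the 250 bases upstream of the annotated start on the strand of the gene, 5′ to 3′, from RefSeq (GRCm38.p6), with matches to the GATA letters (GATA with A or T before it and A or G after it) and to CCNCNCCC, a loose form of the CACC box, in capitals on either strand. Gata1 lies at chrX:7967911-7968160 (minus strand), Klf1 at chr8:84901732-84901981 (plus strand), Epor at chr9:21963577-21963826 (minus strand) and Gfi1b at chr2:28621983-28622232 (minus strand).
Gata1: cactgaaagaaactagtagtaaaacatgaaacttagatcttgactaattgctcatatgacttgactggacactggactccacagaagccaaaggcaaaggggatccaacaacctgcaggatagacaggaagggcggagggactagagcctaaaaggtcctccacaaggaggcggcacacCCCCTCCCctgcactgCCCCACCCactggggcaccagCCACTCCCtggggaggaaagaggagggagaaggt
Klf1: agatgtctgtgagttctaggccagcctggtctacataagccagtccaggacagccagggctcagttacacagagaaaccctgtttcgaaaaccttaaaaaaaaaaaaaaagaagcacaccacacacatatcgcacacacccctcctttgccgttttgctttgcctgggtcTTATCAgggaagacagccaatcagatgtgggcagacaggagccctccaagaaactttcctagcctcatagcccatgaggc
Epor: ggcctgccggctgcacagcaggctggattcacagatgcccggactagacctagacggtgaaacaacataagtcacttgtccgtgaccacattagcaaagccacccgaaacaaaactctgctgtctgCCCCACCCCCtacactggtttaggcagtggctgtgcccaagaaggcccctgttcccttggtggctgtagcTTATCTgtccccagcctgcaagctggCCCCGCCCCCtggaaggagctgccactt
Gfi1b: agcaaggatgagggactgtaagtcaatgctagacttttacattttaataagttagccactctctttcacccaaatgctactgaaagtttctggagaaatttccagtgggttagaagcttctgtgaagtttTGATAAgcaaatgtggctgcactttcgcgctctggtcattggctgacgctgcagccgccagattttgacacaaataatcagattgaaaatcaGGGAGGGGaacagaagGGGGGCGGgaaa

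Windows of 300 bases, which add the first 50 bases after the start, were at hand for 8 of the 10 genes, with 9 windows in all because Tal1 has 2. The GATA letters were found in 4 of the 9 windows, those of Klf1, Epor, Gfi1b and 1 of Tal1, and in 29.8% of all 32851 windows. In Klf1 the match begins at -80 from the start, in Epor at -54 and in Gfi1b at -120. The Gata1 window held none. An E-box (CANNTG) was found in 7 of the 9 windows and in 72.3% of all, and CCNCNCCC, whose matches can overlap each other, in 7 of the 9 and in 49.5% of all. The stricter CCACACCC was found in 0 of the 9 and in 3.56% of all. Such a match is a run of letters, not a bound site.

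All 18 probes were well above background on each of the 4 arrays and passed the filters on low and variable signal. Levels are given as the log2 of the background-subtracted intensity after subtraction of the 75th percentile of the array, so that 0 is a spot as bright as that percentile. Levels under CD or HFD are listed with replicate 1 first. Levels of different probes cannot be set against each other, since each probe binds its target with its own strength. In whole liver, fewer cells of a type and less RNA per cell cannot be told apart.

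Gata1 (transcript NM_008089), the GATA factor on which erythroid maturation depends, had a level of 5.51 in CD replicate 1, 5.92 in CD replicate 2, 5.87 in HFD replicate 1 and 5.85 in HFD replicate 2. Only CD replicate 1 stood apart, and both HFD arrays lay between the CD arrays. The diet difference was 0.15 ± 0.21 (SE, log2, 2 against 2 arrays; 95% confidence interval -0.41 to 0.70; limma adjusted p = 1.00).

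Zfpm1 encodes FOG1, the cofactor that GATA1 needs in erythroid and megakaryocytic cells, and was read by 2 probes. The brighter one (NM_009569) had levels of 5.63 and 6.16 under CD and 5.92 and 5.84 under HFD. The dimmer one (the predicted transcript XM_006530851) had 0.70 and 1.35 under CD and 0.96 and 0.84 under HFD. On both, the CD arrays were the lowest and the highest, and the diet differences were -0.01 and -0.13.

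Tal1 and Lmo2 encode the E-box binding factor and the bridging protein of the complex that GATA1 joins. Tal1 had levels of 4.80 and 5.36 under CD and 5.23 and 5.28 under HFD. The brighter Lmo2 probe had 4.72 and 5.33 under CD and 5.21 and 5.19 under HFD, and the dimmer one had 1.06 and 1.79, then 1.45 and 1.34. The 3 probes shared 1 order, with CD replicate 1 lowest and CD replicate 2 highest. The diet difference was 0.17 ± 0.24 (SE) for Tal1, and 0.17 ± 0.26 and -0.03 ± 0.29 for the Lmo2 probes, which read the same transcript.

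Klf1, the CACC-box factor of the adult beta-globin gene, was also read by 2 probes of 1 transcript. The first had levels of 3.41 in CD replicate 1, 4.30 in CD replicate 2, 3.91 in HFD replicate 1 and 3.74 in HFD replicate 2. The second had 2.69, 3.46, 3.14 and 3.02 in the same order. Both probes gave the same picture: CD replicate 2 exceeded CD replicate 1 by 0.89 and 0.78 on the log2 scale, while the HFD arrays differed by no more than 0.17 and lay in between. The diet differences were -0.03 ± 0.34 (SE) and 0.00 ± 0.31.

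Epor, the receptor, had the 4 arrays in the same order as Klf1. That order was also seen on the probes of Gata1, Zfpm1 and Lmo2, the brightest Bcl11a probe and the dimmer Myb probes. The brighter Epor probe had levels of 5.08 and 5.93 under CD and 5.48 and 5.37 under HFD. Its dimmer probe, for the same transcript, had -0.41 and 0.73 under CD and 0.07 and -0.10 under HFD, the widest gap between CD arrays among the 18 probes, at 1.14. The diet differences were -0.08 ± 0.33 and -0.18 ± 0.41 (SE), and the interval of the dimmer probe, -1.27 to 0.92, reached below a 2-fold fall.

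Nfe2, the large subunit of the NF-E2 factor that binds the globin control region, had levels of 4.84 and 5.21 under CD and 5.18 and 5.22 under HFD. Gfi1b, a zinc-finger repressor needed for red cells and platelets, had 3.99 and 4.26 under CD and 4.39 and 4.29 under HFD. For Gfi1b the groups did not overlap, but the gap between the nearest arrays of different diets was small beside that between the CD arrays. The diet differences were 0.18 ± 0.20 (SE) for Nfe2 and 0.22 ± 0.18 for Gfi1b (limma adjusted p = 1.00 for both).

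Myb supports the proliferation of erythroid progenitors and is shut off as they mature. Its brightest probe had levels of 2.57 and 2.94 under CD and 3.005 and 2.95 under HFD, with a diet difference of 0.22 ± 0.20 (SE). The other two probes had -0.83, -0.37, -0.58 and -0.70 (CD replicates 1 and 2, then HFD replicates 1 and 2) and -2.21, -1.83, -2.18 and -2.20. These probes differed between diets by -0.04 and -0.17, so the 3 probes of the gene gave no common direction.

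Bcl11a encodes the repressor of embryonic and fetal globin genes and was read by 3 probes. The brightest (NM_016707) had levels of 3.32 and 3.72 under CD and 3.72 and 3.67 under HFD. Of the 2 probes for the transcript NM_001242934, the brighter had 2.12 and 2.45 under CD and 2.32 and 2.33 under HFD, and the dimmer had -1.29 and -2.07 under CD and -0.995 and -1.14 under HFD. The dimmer probe ran against all others: CD replicate 2 minus CD replicate 1 was -0.78, where it was 0.33 for its partner on the same transcript. It also gave the largest diet difference of the 18 probes, 0.62 ± 0.31 (SE; 95% confidence interval -0.20 to 1.43; limma unadjusted p = 0.107, adjusted p = 1.00), which the other Bcl11a probes, at 0.17 and 0.04, did not share. Leaving out CD replicate 2 gave 0.23, and leaving out CD replicate 1 gave 1.01.

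**Figure D1:**
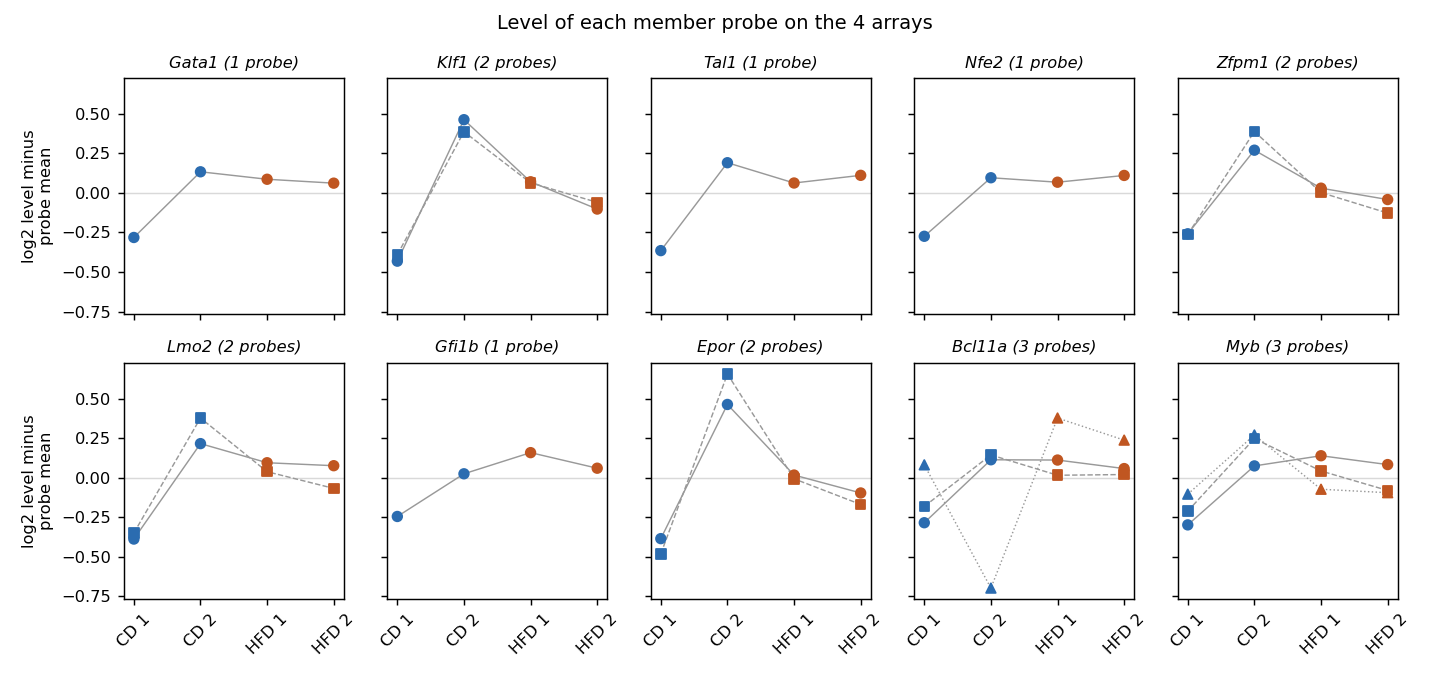
Level of each probe on the 4 arrays, as log2 level minus the mean of the probe, in 1 panel per gene. Blue points are the CD arrays and orange points the HFD arrays, marker shapes and line styles separate the probes of a gene, and the lines only join points of a probe. CD replicate 1 is lowest on 17 of the 18 probes, and the exception is the dimmest Bcl11a probe.

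Counted over the 18 probes, both HFD arrays lay above both CD arrays on 3 (Gfi1b, the brightest Myb probe and the dimmest Bcl11a probe), against 19.5% of all probes tested. Both lay below on 0, against 11.1% of all probes. With 2 arrays against 2, an exact permutation test cannot give a two-sided p below 0.333. Of the 18 probes, 0 passed an unadjusted p of 0.05 together with a 2-fold change, against 0.769% of all probes. The members' median diet difference, over the brightest probe of each gene, was 0.17, with 7 genes higher and 3 lower, and the median over the 18205 genes tested was 0.04. Over all 18 probes, 10 were higher and 8 lower. After quantile normalization 8 were higher and 10 lower, and the median over the genes was 0.078. Averaging the probes of each gene, rather than taking the brightest, gave 0.11.

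**Figure D2:**
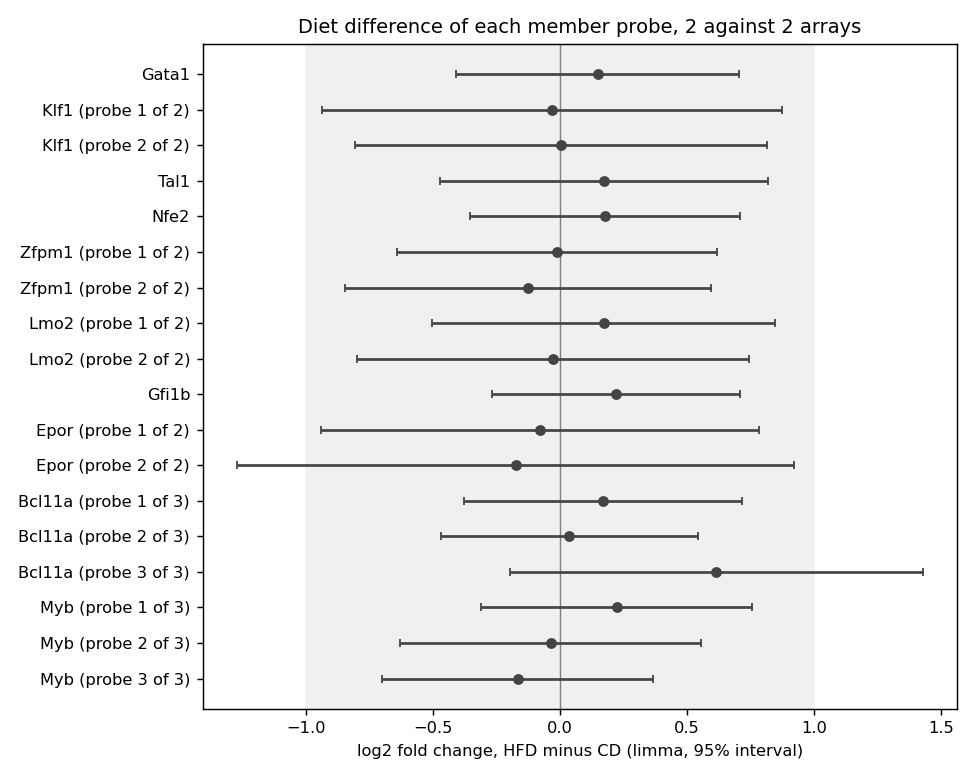
Diet difference of the 18 probes, as the log2 fold change of HFD minus CD with its 95% confidence interval from limma, 2 against 2 arrays. The grey band marks changes of less than 2-fold. Every interval includes 0, and all but those of the dimmer Epor probe and the dimmest Bcl11a probe lie inside the band.

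The gap between the CD arrays was larger than that between the HFD arrays on 18 of the 18 probes, and on 75.6% of all probes tested. Its median size was 0.54 on the log2 scale over the 18 probes, against 0.09 for the HFD arrays. Over all probes the median sizes were 0.35 and 0.12. Of the 18 probes, 0 had a diet difference larger than the gap between its CD arrays, against 27.2% of all probes tested. CD replicate 1 was lowest on 37.3% of all probes and CD replicate 2 highest on 33.5%, against 17 and 14 of the 18 here, and quantile normalization gave the same 17 and 14 (35.2% and 36.3% of all probes). The order rests on scaling: CD replicate 2 was above CD replicate 1 on 17 of 18 probes after scaling by the 75th percentile, by the median, by quantiles or after normexp background correction, but on 6 of 18 in the unscaled intensities, where this array was dimmer as a whole. Its 75th percentile was an intensity of 704, against 908 to 1072 on the other arrays. The sizes of the gaps above are those of the 75th percentile scaling. Under quantile normalization the gap between the CD arrays was smaller on the brightest probe of every member. For Gata1 it was 0.19 in place of 0.42, and for the brighter Epor probe 0.62 in place of 0.85. It was larger on the dimmer Epor and Myb probes.

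The CD arrays lay on either side of both HFD arrays on 14 of the 18 probes, and on 15 of the 18 the sign of the diet difference depended on which CD array was left out. Without CD replicate 2, all 18 probes were higher in HFD, 6 of them with an unadjusted limma p under 0.05 (Gata1, Tal1, Nfe2, and the brightest probes of Lmo2, Bcl11a and Myb), and 14.8% of all probes tested passed. Without CD replicate 1, 15 of the 18 were lower in HFD and 7 passed, 6 of them lower (the first Klf1 probe, both Epor probes, and the dimmest probes of Zfpm1, Lmo2 and Myb) and 1 higher (the dimmest Bcl11a probe), beside 20.8% of all probes. These fits leave 1 CD array, whose spread is assumed to be that of the HFD pair, and the smallest adjusted p among the members was 0.222. Leaving out HFD replicate 1 or 2 brought 0 of the 18 probes under 0.05, against 2.48% and 1.88% of all probes. The median diet difference over the 10 genes was -0.082 when CD replicate 1 was left out and 0.37 when CD replicate 2 was.

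**Figure D3:**
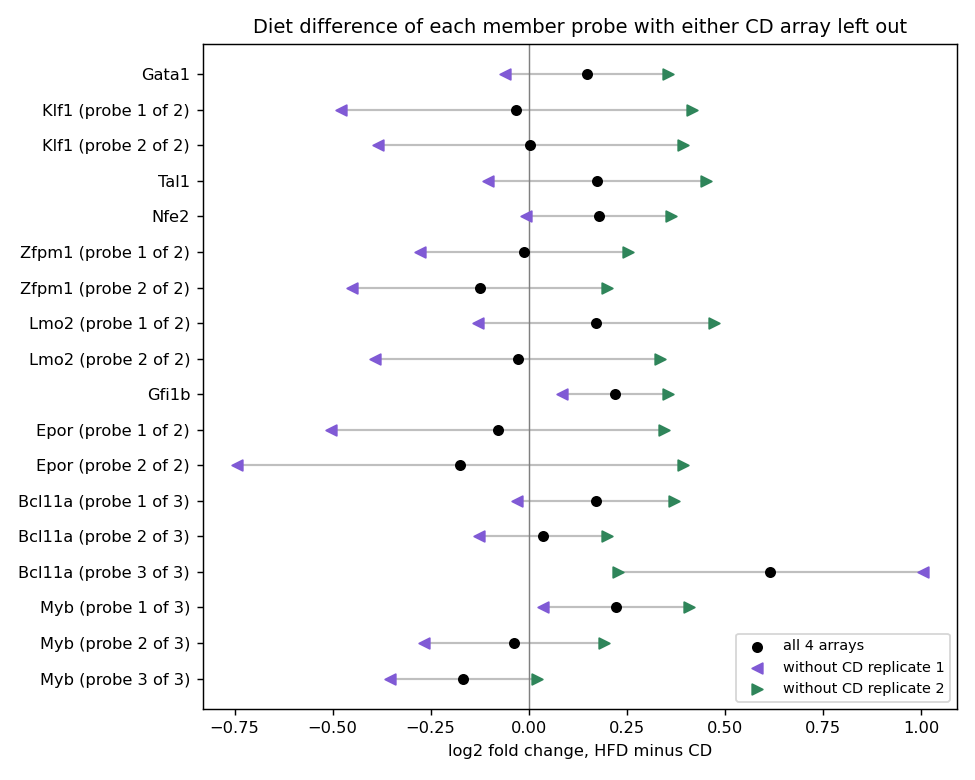
Diet difference of each probe, as the log2 fold change of HFD minus CD, with all 4 arrays (black circles), without CD replicate 1 (purple triangles) and without CD replicate 2 (green triangles). All green triangles lie above 0, and the purple ones lie below 0 for 15 of the 18 probes.

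Erythroid target genes mostly gave the same order of the CD arrays. Of 33 measured erythroid target genes (globins, heme and iron genes, and red cell membrane genes), CD replicate 1 was lowest on 29 (42.7% of all genes tested), and CD replicate 2 was above it on 29 (55.5% of all genes). CD replicate 2 was the highest array on 17 of the 33, against 33.7% of all genes and 7 of the 10 members. The median gap from CD replicate 1 to CD replicate 2 was 0.47 for the targets and 0.47 for the members, against 0.06 over all genes tested. The median diet difference of the targets was 0.17, with 28 higher and 5 lower (57.6% of all genes were higher). Of the 33, 0 had an adjusted limma p under 0.05 and 1 had an unadjusted p under 0.05. Of all 18205 genes tested, 251 were higher and 266 lower at that unadjusted p. On 12 of the 33 both HFD arrays were above both CD arrays, and on 0 below, against 23.0% and 10.1% of all genes tested.

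The adult globin probes were close to constant before scaling. Hba-a1, an alpha-globin gene, had levels of 9.07 and 9.65 under CD and 9.22 and 9.33 under HFD, and Hbb-bt, a beta-globin gene, had 8.90 and 9.55, then 9.06 and 9.21. Both have near-identical copies that a probe may also bind, so the split between copies is uncertain. The unscaled intensities ran only from 568910 to 584710 for Hba-a1 and from 510840 to 536680 for Hbb-bt, so the order of their levels is that of the scaling and shows no change shared with the members. Of the embryonic globins, made by primitive red cells of the yolk sac, Hba-x and Hbb-y had another order. Hba-x had levels of 5.60 and 3.59 under CD and 5.27 and 6.27 under HFD, and Hbb-y had 8.75 and 7.99, then 8.77 and 9.10, so that CD replicate 2 was here the lowest. The diet difference was 1.17 ± 0.76 (SE) for Hba-x and 0.57 ± 0.32 for Hbb-y (limma adjusted p = 1.00 for both). Single arrays decided these sizes. For Hba-x the difference was 0.16 without CD replicate 2, 2.17 without CD replicate 1 and 0.67 without HFD replicate 2, and for Hbb-y it was 0.19 and 0.94 without CD replicates 2 and 1. Hbb-bh1, another embryonic beta-like globin, was the target with an unadjusted p under 0.05: it had 4.998 and 5.32 under CD and 5.62 and 5.90 under HFD, a difference of 0.60 ± 0.21 (limma unadjusted p = 0.0410, adjusted p = 1.00). Dmtn, a protein of the membrane skeleton, had the lowest diet difference of the targets at -0.17 ± 0.26, with 3.82 and 4.46 under CD and 4.01 and 3.93 under HFD.

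Partner regulators were spread around 0. Of 26 measured cofactors and other erythroid regulators, 12 were higher and 14 lower in HFD with a median diet difference of -0.01, and 0 passed an unadjusted p of 0.05. CD replicate 2 was above CD replicate 1 on 21 of the 26, against 55.5% of all genes tested. E2f2, a cell cycle factor of terminal erythroid divisions, had levels of 5.94 and 6.35 under CD and 6.06 and 6.20 under HFD. Lyl1, a relative of TAL1, had 5.14 and 5.52, then 5.51 and 5.44. Both kept both HFD arrays between the CD arrays. Hdac1, the deacetylase of several GATA1 corepressor complexes, had 5.74 and 5.86 under CD and 5.97 and 5.99 under HFD. Sox6, which acts with BCL11A on globin genes, had the highest diet difference of the list at 0.31 ± 0.17 (SE), with 3.36 and 3.59 under CD and 3.80 and 3.77 under HFD. Spi1, the myeloid factor that opposes GATA1, had the lowest at -0.42 ± 0.42, with -4.74 and -3.78, then -4.36 and -5.01. Its probe was dim, with unscaled intensities of 28.2 to 51.4, where the median spot of an array had 70.2 to 120. In Hdac1 and Sox6 the groups did not overlap, and in Spi1 they did.

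The signalling genes around the receptor gave no call either. Of 20 genes of Epo and Kit signalling, 12 were higher and 8 lower in HFD with a median diet difference of 0.03, and 0 passed an unadjusted p of 0.05. CD replicate 2 was above CD replicate 1 on 17 of the 20, against 55.5% of all genes tested. Epo, the ligand, was not well above background on any of the 4 arrays. Jak2, the kinase bound to the receptor, had levels of 1.04 and 1.56 under CD and 1.31 and 1.31 under HFD, a diet difference of 0.01 ± 0.23 (SE). Stat5a and Stat5b, its targets, differed by 0.16 ± 0.23 and 0.16 ± 0.16. Kit, the stem cell factor receptor of early erythroid progenitors, had 2.00 and 2.61 under CD and 2.05 and 1.97 under HFD. CD replicate 2 alone stood above the rest, but only after scaling. The unscaled Kit intensities were 4303.5 and 4300 under CD and 4020.5 and 3564.1 under HFD. Bcl2l1, the survival gene downstream of STAT5, differed by 0.25 ± 0.20, and Pim1, a kinase induced by the same route, by 0.33 ± 0.24, the highest of the list. Grb2, an adaptor, differed by 0.14 ± 0.16. Trib3, a pseudokinase that dampens AKT, differed by -0.33 ± 0.29, the lowest of the list among genes well above background.

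Hif1a and Epas1 encode hypoxia factors, which the study also examined and which act upstream of Epo. Hif1a had levels of 2.48 and 2.24 under CD and 2.53 and 2.46 under HFD, and Epas1 had 2.89 and 2.98, then 2.76 and 2.97. Neither kept the order seen in the erythroid genes, and the diet differences were 0.14 ± 0.18 and -0.07 ± 0.18 (SE).

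A gap between the CD arrays in the same direction was seen in other liver cell types. From CD replicate 1 to CD replicate 2, the median gap was 0.74 over 14 megakaryocyte genes, 0.44 over 12 macrophage genes and 0.44 over 14 hepatoblast and hepatocyte genes. The summed linear level of the hepatoblast and hepatocyte list, on the log2 scale, was 10.96 and 11.56 under CD and 11.23 and 11.25 under HFD. Its brightest genes were Serpina1a, Alb and Afp. Their unscaled intensities on CD replicates 1 and 2 were 338970 and 343520, 303380 and 376930, and 341840 and 319210. The gap in this sum thus depends on the scaling between arrays. Alb, the albumin gene, had 8.14 and 9.06, then 8.53 and 8.54. CD replicate 1 was lowest on 12 and CD replicate 2 highest on 9 of these 14 genes. The 10 stem and progenitor genes had a median gap of -0.22, and their summed level was 5.44 and 4.84 under CD and 5.14 and 5.23 under HFD. The 10 B lymphoid genes tested had a median gap of 0.23 and a summed level, over the list, between 1.42 and 1.56 on the 4 arrays.

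Markers of tissues outside the liver were not level across the 4 arrays, although 0 of those tested passed an adjusted p of 0.05 (limma). Of 21 trophoblast and decidua genes, 18 were left out by the filters, and for 17 both HFD arrays lay below both CD arrays. Tpbpa, a spongiotrophoblast gene, had levels of 3.01 and 4.80 under CD and 1.00 and -1.01 under HFD, and Prl3b1, a placental lactogen gene, had 1.03 and 3.27, then -0.995 and -2.31. The summed level of the 21 genes was 6.16 and 6.58 under CD and 5.61 and 5.64 under HFD, but under HFD that sum was nearly all Gcm1, a labyrinth factor with levels of 5.65 and 4.28 under CD and 5.44 and 5.60 under HFD. Over the other 20 genes, 12 of them well above background on each of the 4 arrays, the summed level was 4.42 and 6.25 under CD and 2.44 and 0.61 under HFD and the median diet difference was -4.17. That sum was highest on CD replicate 2, the array on which most members were highest. Of 16 brain and neuron genes tested, 14 were lower in HFD, 5 with an unadjusted limma p under 0.05, and their median gap from CD replicate 1 to CD replicate 2 was -0.49. Neurod2, a forebrain factor, had -3.49 and -2.76 under CD and -5.02 and -5.19 under HFD. The summed level of the 18 genes on the array was 5.15 and 4.63, then 4.17 and 4.65, and it was highest on CD replicate 1, where most members were lowest. The part of these tissues in the levels of the members was not tested.

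**Figure D4:**
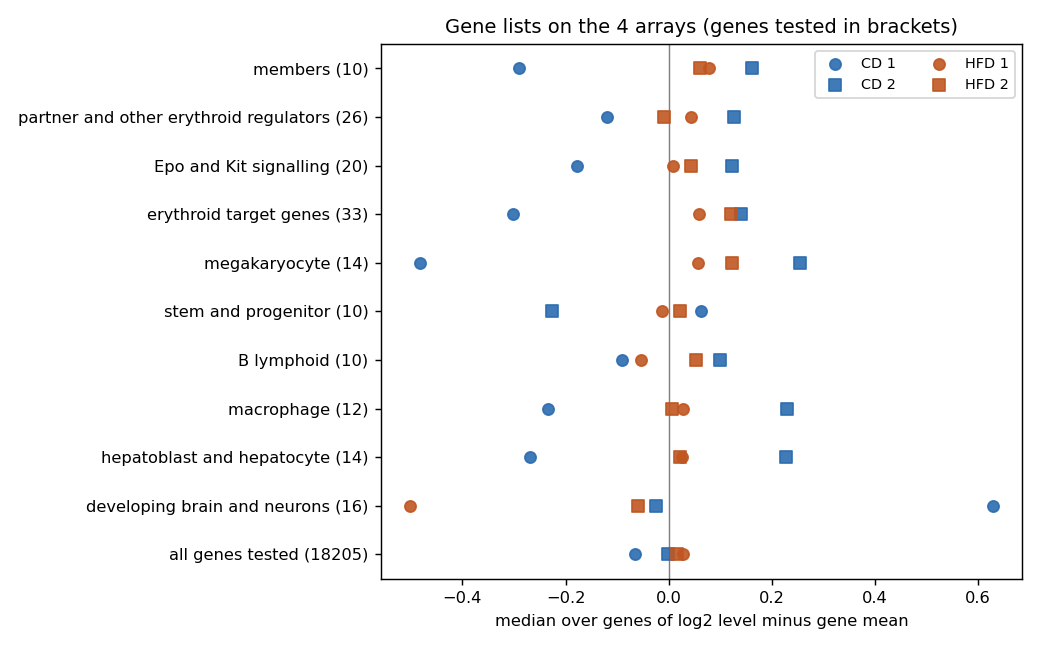
Gene lists on the 4 arrays, as the median over genes of the log2 level minus the mean of the gene, with the number of genes tested in brackets. Blue marks are CD and orange marks HFD, circles replicate 1 and squares replicate 2. CD replicate 1 is lowest and CD replicate 2 highest for the members, the partner regulators, Epo and Kit signalling and the erythroid targets. The same holds for the megakaryocyte, B lymphoid, macrophage and hepatocyte lists. The neuron list and the stem and progenitor list place CD replicate 1 highest.

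To see whether a member moved apart from the erythroid targets, each was set against their median on the same array, after every gene had been centred on its own mean. Gata1, Tal1, Nfe2, Lmo2, Bcl11a and Myb then lay between -0.08 and 0.08 on every array, and Gfi1b between -0.11 and 0.10. Klf1 and Epor stayed apart from the rest on CD replicate 2, at 0.33 and 0.33. Klf1 had -0.12, 0.33, 0.02 and -0.22 (CD replicates 1 and 2, then HFD replicates 1 and 2), and Epor had -0.08, 0.33, -0.04 and -0.21. Under this scaling and reference, the diets did not overlap in 1 member, Zfpm1, with 0.05 and 0.13 under CD and -0.02 and -0.16 under HFD. Its difference of -0.18 had an exact two-sided permutation p of 0.333, the smallest that 2 arrays against 2 can give. Nfe2 (-0.044) was a further member without overlap after quantile normalization and Gata1 (-0.064) after normexp background correction. The differences were -0.20 for Klf1 and -0.25 for Epor (exact permutation p = 0.667 for both), and between -0.02 and 0.05 for the other seven. With the globins left out of the targets, Klf1 and Epor were at 0.32 and 0.32 on that array. These values depended on the genes used for comparison. Set against hepatoblast and hepatocyte genes, Klf1 and Epor were at 0.24 each on CD replicate 2. Every member has the same value subtracted on an array, so the ranking of members on an array is fixed whatever the reference. Against this reference the diets did not overlap in 8 of the 10 members (exact permutation p = 0.333 for each). The difference was between 0.10 and 0.18 for Gata1, Tal1, Nfe2, Lmo2, Gfi1b, Bcl11a and Myb, and -0.056 for Zfpm1. These 8 share the same subtracted reference and are not separate observations. The share of all genes without overlap was not computed for either reference, so these counts cannot be read as a result about the members.

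**Figure D5:**
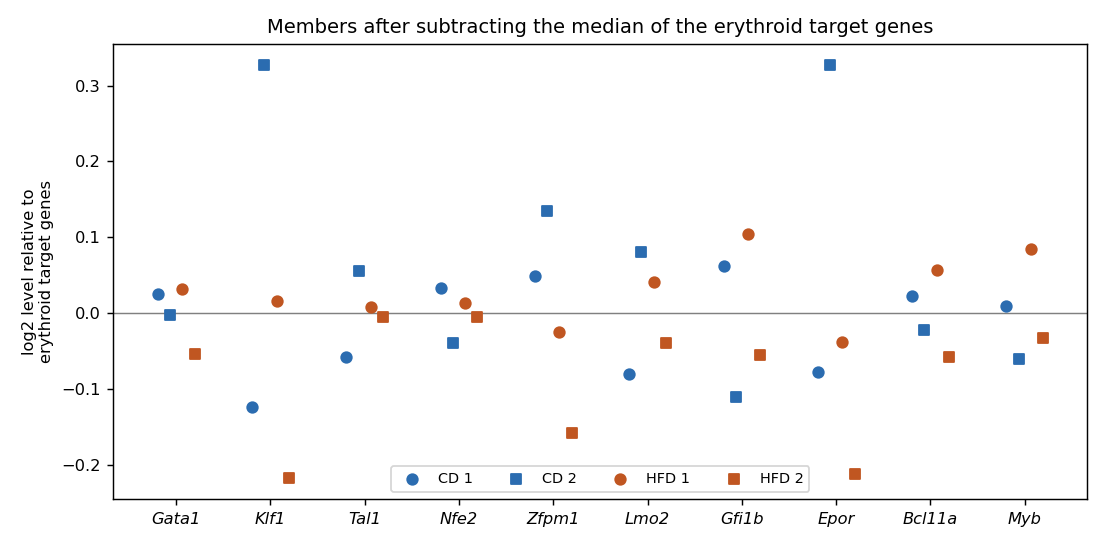
Level of each member, by its brightest probe, relative to the median of the erythroid target genes on the same array, on the log2 scale. Blue marks are CD and orange marks HFD, circles replicate 1 and squares replicate 2. Klf1 and Epor lie at 0.33 on CD replicate 2, and the other members lie between -0.16 and 0.13.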

How the data were processed

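Expression in whole fetal liver was measured on 4 Agilent arrays on 1 slide (CD and HFD, 2 each). Groups and replicate numbers came from the labels. The authors extracted spot values with Feature Extraction 11.0.1.1 and deposited, per spot, a background-subtracted intensity not scaled between arrays, with flags that are scores of 0 or 1. They also deposited a table of normalized signal, which was the same intensity divided by 1 constant per array. From 62976 spots per array, 65.4% to 70.0% of the non-control ones were well above background, and their number of arrays limits the precision.

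Here the log2 intensity was taken, spots with an outlier flag were dropped, spots of a probe were averaged and the 75th percentile of each array was subtracted. As in the methods, probes below the 20th percentile of at least 1 array were removed (14980). The last filter departed from the methods, which apply the 50% limit to the CV of log scale values: the CV was taken on the linear scale, which removed 284 more probes and left 41332. The log scale CV, as an alternative, left 41614. Differences were fitted by lmFit and eBayes of limma (version 3.58.1, R 4.3.3) without covariates, with Benjamini-Hochberg adjustment over all probes tested; the methods name unpaired t-tests for the study in general, which were run as an alternative. The fit was tested on data simulated with the same spread on every array, taken from the HFD pair. That test did not cover the wider gap between the CD arrays. Values were prepared with Python 3.11.15, numpy 2.4.6 and pandas 2.3.3 and plotted with matplotlib 3.10.9.

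Probes were named by transcript through RefSeq genes of GRCm38.p6, which gave 32994 of 56605 probes a gene symbol, and the brightest probe stood for a gene in each list. The array was designed on another build, so no probe coordinates are given. The members and the gene lists, written from general knowledge, were chosen with earlier results of these data known. Named genes were all members, and from the other lists the 3 brightest, the highest and the lowest difference and any gene with a 2-fold change at an unadjusted p of 0.05, with Hif1a and Epas1; marker lists are given mainly by counts. Epo, Kit, Jak2, Stat5a, Stat5b and Hbb-bh1 were chosen after their values were seen, as was the trophoblast sum without Gcm1. Other scalings, background correction, filters, tests, a replicate block and leaving out each array were tried.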

Additional observations from a re-analysis of the deposited data

How the results depend on the processing

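The design of 2 against 2 arrays limits every comparison here. No alternative gave a member probe an adjusted p under 0.05. Under normexp background correction 13 probes of the whole array were higher and 35 lower past the cutoffs, with 1 adjusted p under 0.05 and 1 member probe (the dimmest of Bcl11a) past the unadjusted p, against 121 higher, 197 lower and 0 of either in the main analysis. The cutoffs gave 385 higher and 460 lower with no filter at the 20th percentile, 71 higher with a filter on signal above background, 41 and 56 with the methods' t-test, and 21 and 25 with its Welch form. The diet difference changed sign under quantile normalization for the second Klf1 probe (-0.066), the brighter probe of the shared Bcl11a transcript (-0.0063) and Jak2 (-0.0024) and became 0 for Hba-a1, under median scaling for the brighter Zfpm1 probe (0.0054), and under normexp for that probe (0.0054) and E2f2 (0.014). The correlation of same-numbered deviations was -0.10, which with 2 arrays per diet cannot show whether the replicate numbers pair the arrays. A replicate block gave 177 higher and 258 lower, with 0 adjusted calls and 0 member probes past the unadjusted p.

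Leaving out 1 array at a time gave 190 to 842 probes higher and 381 to 466 lower past the cutoffs, 0 to 6 adjusted calls (6 without HFD replicate 1) and 0 to 7 member probes past the unadjusted p. The median diet difference ran from -0.082 to 0.37 for the members, -0.14 to 0.12 for the partner regulators, -0.086 to 0.17 for Epo and Kit signalling and -0.048 to 0.37 for the erythroid targets. Members whose sign turned had these ranges: Gata1 -0.059 to 0.36, Klf1 -0.48 to 0.42 and -0.38 to 0.39, Tal1 -0.10 to 0.45, Nfe2 -0.0068 to 0.36, Zfpm1 -0.28 to 0.25 and -0.45 to 0.20, Lmo2 -0.13 to 0.47 and -0.39 to 0.33, Epor -0.50 to 0.35 and -0.74 to 0.39, Bcl11a -0.029 to 0.37 and -0.13 to 0.20, Myb -0.27 to 0.19 and -0.35 to 0.020. Members whose sign held had Gfi1b 0.085 to 0.35, Bcl11a (dimmest probe) 0.23 to 1.01 and Myb (brightest probe) 0.036 to 0.41. Of the other genes named, those whose sign turned had Alb -0.53 to 0.39, Dmtn -0.49 to 0.14, E2f2 -0.22 to 0.19, Epas1 -0.18 to 0.032, Hba-a1 -0.38 to 0.20, Hbb-bt -0.42 to 0.24, Jak2 -0.24 to 0.27, Kit -0.60 to 0.0075, Lyl1 -0.051 to 0.33, Spi1 -0.91 to 0.057, Stat5a -0.038 to 0.35, Trib3 -0.69 to 0.034. Against hepatoblast and hepatocyte genes in place of the erythroid targets, 8 of the 10 members' relative differences moved by more than the spread between replicates. The shift was the same for all 10, since the same reference values are subtracted from each. The cause of these shifts was not tested.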
